A study of Mus musculus with 18 samples.

Results

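The genes described here encode 10 subunits of the Polycomb repressive complexes, namely the PRC2 core genes *Ezh1*, *Ezh2*, *Eed* and *Suz12*, the PRC1 genes *Rnf2*, *Ring1* and *Bmi1*, and the CBX genes *Cbx2*, *Cbx7* and *Cbx8*. They were taken by symbol from a table of 34896 genes, and all 10 were found in it. The study sorted 3 successive stages of neutrophil formation from the bone marrow of adult C57BL/6 mice aged 6 to 12 weeks, namely granulocyte-monocyte progenitors (GMPs), pre-neutrophils (preNeu) and mature neutrophils (matNeu). GMPs were sorted from lineage-depleted marrow by cKIT and CD34, preNeu cells as Gr-1+ Mac-1+ cells with high cKIT, and matNeu cells as SiglecF- CXCR2+ cells. RNA-seq of wild type (WT) cells gave 3 libraries per stage. ChIP-seq gave 1 library each for CHD4 in WT and in *Gfi1*-/- GMPs, which carry a knockout of the gene of the transcription factor GFI1, and for the histone mark H3K4me2 in WT GMPs, preNeu and matNeu cells. The labels do not say whether the RNA-seq libraries of a stage came from separate mice, so that p-values measure the spread between these libraries, which may be technical.

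Polycomb proteins keep genes silent through histone marks. PRC2 methylates lysine 27 of histone H3 with EZH1 or EZH2 as its enzyme, EED binds the mark and SUZ12 holds the complex together. PRC1 attaches ubiquitin to histone H2A through RING1 or RNF2 (also known as RING1B), a PCGF protein such as BMI1 sits beside that enzyme, and in canonical PRC1 a CBX protein binds the methylated H3 that PRC2 leaves. EZH2 is known as the form of dividing cells and EZH1 as the form of resting cells, and BMI1 is known for its need in blood stem cell renewal.

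The titles and the cell type given in the labels differ for 13 of the 18 samples, among them all 9 RNA-seq libraries, and the titles were followed. Summed TPM (a measure of transcript abundance per length, scaled so that each library sums to 1000000) of 6 GMP markers was 45267 to 47153 in the libraries titled GMP and 9.32 to 32.7 in those titled matNeu, and 6 preNeu markers stood at 142059 to 164593 in preNeu and at 121 to 140.3 in GMPs. TPM keeps no read depth, so the depth behind each value is unknown. Between 10754 and 12256 genes per library reached 1 TPM, and the 10 most abundant genes took 9.15 to 9.78% of all TPM in GMPs but 24.1 to 28.3% in preNeu. In such bulk samples fewer cells of a type and less RNA per cell cannot be told apart.

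The sequences under the CHD4 summits are shown first, because CHD4, the ATPase of the NuRD complex, was listed at *Ezh2*, *Eed* and *Rnf2* and at no other member. Each line gives 29 bases of GRCm38.p6 on the plus strand, with the summit base in capitals. They were at chr6:47562611-47562639 in an intron of *Ezh2*, at chr6:47594070-47594098 in the intron near its start, at chr7:89980417-89980445 in a coding exon of *Eed* and at chr1:151489964-151489992 in an intron of *Rnf2*.
Ezh2 distal summit: ttgaggaagctcaaCagcaaacatggttt
Ezh2 summit near the start: tagccctgaagcatAcgatctggtgcgtg
Eed summit: cgtctcccgagaggTccgggttgctgttc
Rnf2 summit: actgccatctaaagCtgcgtctgtaaaca

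The core AAATCA of the GFI1 recognition sequence was searched on both strands in 201 bases around each summit, and 0 of these 4 windows held it. Of 35728 such windows over the whole CHD4 list of WT GMPs, 12.1% did. Promoters of 9 members were in the RefSeq table for GRCm38.p6, and *Cbx2* was not matched. In the 250 bases before the start, E2F letters (TTTCCCGC, TTTGGCGC, TTTCGCGC or TTTGCCGC, both strands) were found at *Suz12* and at 0 of the other 8, against 1.86% of all 32851 promoters. The CHR letters TTTGAA (both strands), known from genes of the cell cycle, were found at *Eed*, *Suz12* and *Cbx7*, against 16.0% of all promoters. The stretch of the *Suz12* promoter at chr11:79992883-79992912 on the plus strand, 223 to 194 bases before the start, is shown because it held both motifs, here in capitals.
Suz12: tcatTTTCCCGCgaattcagTTCAAAgagg

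*Ezh2* was the PRC2 enzyme with the higher TPM in GMPs and preNeu, and *Ezh1* the one with the higher TPM in matNeu cells. *Ezh2* (ENSMUSG00000029687, GRCm38 chromosome 6, 47530139 to 47595341, minus strand) had 95.0, 81.8 and 87.1 TPM in the 3 GMP libraries, 77.6, 85.6 and 77.3 TPM in preNeu, and 2.64, 2.79 and 3.66 TPM in matNeu cells. GMP and preNeu libraries overlapped, and every matNeu library lay far below them. Stages were compared with limma in 1 model of all 9 libraries and of the 13061 genes that passed the filter on low values, on log2(TPM + 1), a scale that understates the change of low genes. The log2 change of *Ezh2* was -4.34 from preNeu to matNeu (standard error 0.16, adjusted p = 4.7e-09 from limma) and -0.13 from GMPs to preNeu (standard error 0.16, adjusted p = 0.51 from limma). The log2 change over all tested genes had a median of -0.52 in preNeu against GMPs, -0.32 in matNeu against preNeu and -0.92 in matNeu against GMPs. Relative to these medians *Ezh2* changed by -4.02 on the log2 scale between preNeu and matNeu.

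*Ezh1* (ENSMUSG00000006920, chromosome 11, 101191115 to 101226463, minus strand) had 29.2, 20.3 and 19.0 TPM in GMPs, 14.9, 17.8 and 18.1 TPM in preNeu, and 64.3, 70.5 and 78.5 TPM in matNeu cells. All matNeu libraries were above all others. *Ezh1* rose by 2.00 on the log2 scale from preNeu to matNeu (standard error 0.19, adjusted p = 4.9e-06 from limma), or by 2.32 relative to the median of all genes. From GMPs to preNeu the log2 change of -0.39 did not pass (adjusted p = 0.11 from limma), although the libraries of both stages did not overlap.

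The share of *Ezh2* in the summed TPM of *Ezh1* and *Ezh2* expressed this balance within each library, where a scaling of the whole library cancels. It was 76.5, 80.1 and 82.1% in GMPs, 83.9, 82.8 and 81.0% in preNeu, and 3.94, 3.81 and 4.46% in matNeu cells. The balance, log2 of (*Ezh2* + 1) over (*Ezh1* + 1), differed by -6.34 between matNeu and preNeu and by 0.26 between preNeu and GMPs, with a pooled SD within stages of 0.16. An exact permutation test over all 1680 assignments of the 9 libraries to 3 stages gave p = 0.0071 (adjusted p = 0.0095 over 4 balances tested, smallest p possible 0.0036). Between 2 stages of 3 libraries the smallest possible two-sided exact permutation p is 0.1, and matNeu against preNeu gave 0.1. The summed TPM of both enzymes moved less than their balance. GMPs had a sum of 111 ± 11.8 (SD, n = 3), preNeu had 97.1 ± 5.65 (SD, n = 3) and matNeu cells had 74.1 ± 7.63 (SD, n = 3). Unlike the balance, this sum depends on how whole libraries are scaled. Factors for scaling by median ratios between libraries were 1.45 to 1.49 for the GMP libraries but 0.696 to 0.763 for the matNeu libraries. Divided by these factors, the sum in every matNeu library lies above that in every GMP library. The fall of the sum from GMPs to matNeu thus holds for TPM as given only, and no test was run on the rescaled sum.

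**Figure D1:**
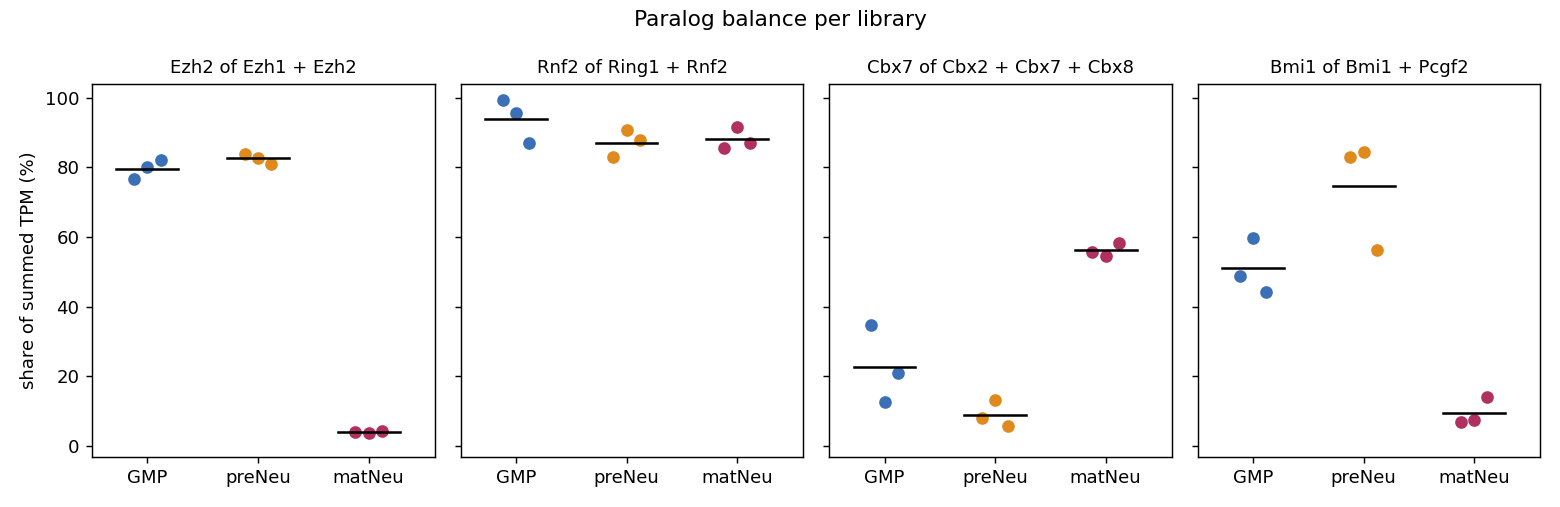
Share of the first-named gene in the summed TPM (%) of its paralog set, for each RNA-seq library (points, 3 per stage) with the mean (black line). The *Ezh2* share lies between 76.5 and 83.9% in GMPs and preNeu and between 3.81 and 4.46% in matNeu, and the *Cbx7* share is 54.6 to 58.4% in matNeu.

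Genes of proliferation were low in matNeu cells, as *Ezh2* was. The summed TPM of 12 such genes, among them *Mki67*, *Top2a* and *Pcna*, was 4306 to 4716 in GMPs and 3757 to 4131 in the preNeu libraries, but 54.6 to 73.8 in matNeu cells. By limma 12 of 12 were lower in matNeu than in preNeu, beside 39.8% of all tested genes. Between GMPs and preNeu, where *Ezh2* was not called, 5 of the 12 were called higher in preNeu, such as *Mki67* (log2 change 1.54), and 7 lower, such as *Mcm6* (-1.63). In that comparison 14.7% of all tested genes were called higher and 44.3% lower. The part of these 12 genes in the change of *Ezh2* was not tested. By Pearson's r of log2(TPM + 1) over the 9 libraries, among 8212 genes with a mean of at least 10 TPM, the genes most like *Ezh2* were *Hmgb3* (r = 0.999), *Ilf2* (r = 0.999) and *Prdx6* (r = 0.999), which describes 9 points in 3 clusters by stage. The levels of *Hmgb3* were 183 TPM in GMPs, 186 TPM in preNeu and 2.93 TPM in matNeu cells on average. Those of *Prdx6* were 881, 868 and 421 TPM, so that a high r does not mean a fall of like size. The genes most like *Ezh1* were *Aatk* (r = 0.993), *Klc4* (r = 0.992) and *Ifi204* (r = 0.991).

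The other core subunits of PRC2 did not follow 1 pattern. *Suz12* (ENSMUSG00000017548, chromosome 11, 79993106 to 80034123, plus strand), the scaffold, had 21.5, 25.4 and 24.7 TPM in GMPs, 18.1, 18.9 and 25.3 TPM in preNeu, and 6.42, 5.39 and 5.37 TPM in matNeu cells. The first stages overlapped, and matNeu libraries were below both, with a log2 change of -1.68 against preNeu (standard error 0.20, adjusted p = 2.8e-05 from limma). *Eed* (ENSMUSG00000030619, chromosome 7, 89954654 to 89980983, minus strand), the reader of the mark, had 94.2, 139 and 110.4 TPM in GMPs, 74.3, 55.6 and 64.0 TPM in preNeu, and 102, 94.0 and 114 TPM in matNeu cells. It was thus lowest in preNeu, and its GMP and matNeu libraries overlapped. *Eed* was lower in preNeu than in GMPs (log2 change -0.81, standard error 0.17, adjusted p = 0.0020 from limma) and higher in matNeu than in preNeu (0.67, standard error 0.17, adjusted p = 0.0052). When TPM was rescaled by median ratios between libraries, the fall of *Eed* into preNeu no longer passed (log2 change -0.28), and its change from GMPs to matNeu turned from -0.13 to 0.86. In matNeu cells the mean TPM was 103 for *Eed*, 71.1 for *Ezh1*, 5.72 for *Suz12* and 3.03 for *Ezh2*.

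**Figure D2:**
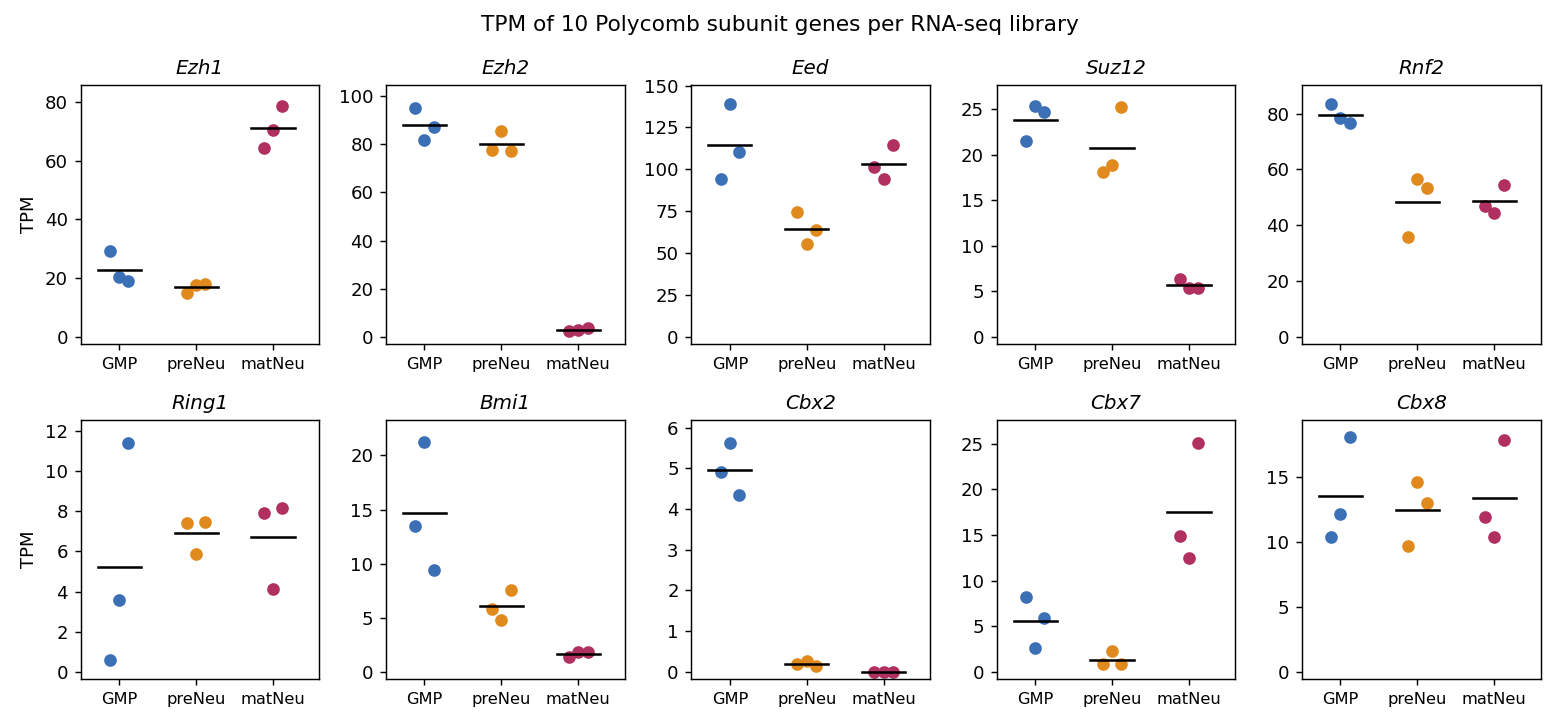
TPM of each member gene in the 9 RNA-seq libraries (points, 3 per stage, y axes starting at 0 and differing between genes) with the stage mean (black line). *Ezh2*, *Suz12* and *Bmi1* have their lowest libraries in matNeu, *Ezh1* and *Cbx7* their highest, and *Eed* its lowest in preNeu.

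The catalytic pair of PRC1 was dominated by *Rnf2* at every stage. *Rnf2* (ENSMUSG00000026484, chromosome 1, 151458004 to 151500955, minus strand) had 83.5, 78.3 and 76.6 TPM in GMPs, 35.9, 56.4 and 53.2 TPM in preNeu, and 47.1, 44.4 and 54.5 TPM in matNeu cells. Both later stages overlapped each other and lay below the GMPs. The fall into preNeu passed (log2 change -0.73, standard error 0.18, adjusted p = 0.0051 from limma), but it was -0.21 relative to the median of all genes and did not pass after median ratio scaling (-0.20). In matNeu against GMPs the log2 change of *Rnf2* was -0.70 (adjusted p = 0.0042 from limma), which lies above the median of all genes by 0.22, and it turned to 0.29 after median ratio scaling. *Ring1* (ENSMUSG00000024325, chromosome 17, 34020792 to 34024680, minus strand) had 0.601, 3.60 and 11.4 TPM in GMPs, 7.41, 5.86 and 7.45 TPM in preNeu, and 7.93, 4.13 and 8.15 TPM in matNeu cells. Its GMP libraries spread over the range of all the others, and none of its 3 comparisons passed (adjusted p of 0.27 to 0.93 from limma). Without GMP replicate 3, the one with 11.4 TPM, *Ring1* was called higher in preNeu and in matNeu than in GMPs, with log2 changes of 1.54 and 1.46. After median ratio scaling *Ring1* was also called higher in matNeu than in GMPs, with a log2 change of 1.50 in place of 0.73 (adjusted p = 0.031 from limma).

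*Rnf2* made up 99.3, 95.6 and 87.0% of the summed TPM of *Rnf2* and *Ring1* in GMPs, 82.9, 90.6 and 87.7% in preNeu, and 85.6, 91.5 and 87.0% in matNeu cells. The stages overlapped, and the exact permutation test gave p = 0.15 (adjusted p = 0.15 over 4 balances). The balance differed by -1.43 between matNeu and GMPs on the log2 scale, against a pooled SD of 0.95 within stages, most of which lay in GMPs.

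*Bmi1* (ENSMUSG00000026739, chromosome 2, 18677018 to 18686629, plus strand), which encodes a PCGF protein of canonical PRC1, fell at both steps. It had 13.4, 21.2 and 9.44 TPM in GMPs, 5.78, 4.83 and 7.59 TPM in preNeu, and 1.34, 1.84 and 1.79 TPM in matNeu cells, and no libraries of different stages overlapped. The log2 change was -1.10 from GMPs to preNeu (standard error 0.31, adjusted p = 0.010 from limma) and -1.40 from preNeu to matNeu (standard error 0.31, adjusted p = 0.0023 from limma). The first step was -0.61 and did not pass after median ratio scaling.

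The paralog of *Bmi1*, *Pcgf2* (also known as MEL18), is no member and was taken to set the balance. It had 14.1, 14.2 and 11.9 TPM in GMPs, 1.18, 0.902 and 5.89 TPM in preNeu, and 18.0, 23.1 and 10.9 TPM in matNeu cells. *Bmi1* made up 48.9, 59.8 and 44.3% of the pair in GMPs, 83.1, 84.3 and 56.3% in preNeu, and 6.94, 7.38 and 14.1% in matNeu cells. The exact permutation test over 3 stages gave p = 0.0071 (adjusted p = 0.0095 over 4 balances), and the preNeu and GMP shares overlapped. The balance was lower in matNeu than in GMPs by a log2 difference of -2.79, with a pooled SD of 0.60.

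The CBX proteins carry the binding of canonical PRC1 to methylated H3, and *Cbx2*, *Cbx7* and *Cbx8* each took a different course. *Cbx2* (ENSMUSG00000025577, chromosome 11, 119022962 to 119031270, plus strand) had 4.90, 5.62 and 4.35 TPM in GMPs and 0.184, 0.261 and 0.146 TPM in preNeu, and was listed at 0 in each of the 3 matNeu libraries. It passed the filter on low values through its GMP libraries only, so that a difference from GMPs had to follow from that. *Cbx2* was called lower in preNeu than in GMPs (log2 change -2.31, adjusted p = 1.3e-05 from limma) and in matNeu than in GMPs (adjusted p = 1.5e-06 from limma), and no fold is given against a stage at 0.

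*Cbx7* (ENSMUSG00000053411, chromosome 15, 79915807 to 79971119, minus strand) had 8.16, 2.59 and 5.94 TPM in GMPs, 0.867, 2.25 and 0.83 TPM in preNeu, and 14.9, 12.5 and 25.1 TPM in matNeu cells. It was lowest in preNeu and highest in matNeu, and no stages overlapped in TPM as given. The log2 change was -1.45 from GMPs to preNeu (standard error 0.41, adjusted p = 0.010 from limma), 2.99 from preNeu to matNeu (standard error 0.41, adjusted p = 7.7e-05) and 1.54 from GMPs to matNeu (adjusted p = 0.0052). After median ratio scaling the first step was -1.03 and passed narrowly (adjusted p = 0.049 from limma), and GMP and preNeu libraries then overlapped. Genes of B cells were also present in matNeu cells. *Cd79a*, part of the B cell receptor, had 16.2, 18.6 and 33.1 TPM in the matNeu libraries, 5.68 to 8.58 TPM in preNeu and at most 0.603 TPM in GMPs, and *Ms4a1*, which encodes CD20, had 8.33, 11.5 and 16.0 TPM in matNeu libraries and at most 0.523 TPM in GMPs. Both were called higher in matNeu cells than in GMPs by limma, while *Cd79b* was called lower, with 25.1 to 53.9 TPM in matNeu cells and 77.9 to 93.7 TPM in GMPs. The matNeu library with the highest *Cbx7* was also the highest of its stage in these 3 B cell genes, and the part of B cells in the level of *Cbx7* was not tested. The same library was also the highest of its stage in *Ezh1*, *Ezh2*, *Eed*, *Rnf2*, *Ring1* and *Cbx8*, but not in *Suz12* or *Bmi1*. Without that library, matNeu replicate 3, *Cbx7* still passed in both comparisons with matNeu cells. The matNeu libraries that remained also held *Cd79a* and *Ms4a1*, so that this is no test of the part of B cells. The genes most like *Cbx7* over the 9 libraries were *Usp3* (r = 0.972), *Zfp53* (r = 0.966) and *Frat1* (r = 0.965), again over 3 clusters by stage.

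*Cbx8* (ENSMUSG00000025578, chromosome 11, 119036305 to 119040969, minus strand) had 10.4, 12.2 and 18.1 TPM in GMPs, 9.70, 14.7 and 13.1 TPM in preNeu, and 11.9, 10.4 and 17.9 TPM in matNeu cells. All stages overlapped, and the 3 log2 changes of -0.09, 0.08 and -0.02 (standard error 0.28) did not pass (adjusted p of 0.79 to 0.96 from limma). After median ratio scaling the change of *Cbx8* from GMPs to matNeu was 0.91 and passed (adjusted p = 0.0078 from limma).

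The share of *Cbx7* in the summed TPM of *Cbx2*, *Cbx7* and *Cbx8* was 34.8, 12.7 and 20.9% in GMPs, 8.07, 13.1 and 5.92% in preNeu, and 55.6, 54.6 and 58.4% in matNeu cells. *Cbx8* made up 85.4 to 93.0% in preNeu, and *Cbx2* 15.3 to 27.6% in GMPs. The exact permutation test over 3 stages gave p = 0.0071 for the balance of *Cbx7* against *Cbx2* and *Cbx8* (adjusted p = 0.0095 over 4 balances). The balance was higher in matNeu than in preNeu by a log2 difference of 2.94, with a pooled SD of 0.50, and the preNeu and GMP shares overlapped.

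Over the 10 members, 0 were called higher and 5 lower in preNeu than in GMPs (*Eed*, *Rnf2*, *Bmi1*, *Cbx2* and *Cbx7*), where 14.7% of all tested genes were called higher and 44.3% lower. After median ratio scaling *Cbx2* and *Cbx7*, 2 of the 10, were called lower in this comparison. Under that scaling 23.5% of all tested genes were called higher and 27.6% lower. In matNeu against preNeu, 3 were higher (*Ezh1*, *Eed* and *Cbx7*) and 3 lower (*Ezh2*, *Suz12* and *Bmi1*), against 22.9% and 39.8% of all tested genes. After median ratio scaling 4 were higher and 3 lower, beside 31.9% and 32.3% of all tested genes. *Rnf2* was among the 4, with a log2 change of 0.49 (adjusted p = 0.014 from limma). In matNeu against GMPs, 2 were higher (*Ezh1* and *Cbx7*) and 5 lower (*Ezh2*, *Suz12*, *Rnf2*, *Bmi1* and *Cbx2*), against 22.8% and 54.1% of all tested genes, and 5 were higher and 4 lower after median ratio scaling, where 36.1% and 40.3% of all tested genes were. The counts of lower members are close to the share of all genes called lower, and they say nothing particular about Polycomb genes. Each count of members lower than GMPs, before and after scaling, includes *Cbx2*. It passed the filter on low values through its GMP libraries only, so that its calls had to follow from that. The comparisons share the libraries of a stage. The median log2 change of the members was -0.56, -0.02 and -0.42 in these 3 comparisons, beside -0.52, -0.32 and -0.92 over all tested genes.

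**Figure D3:**
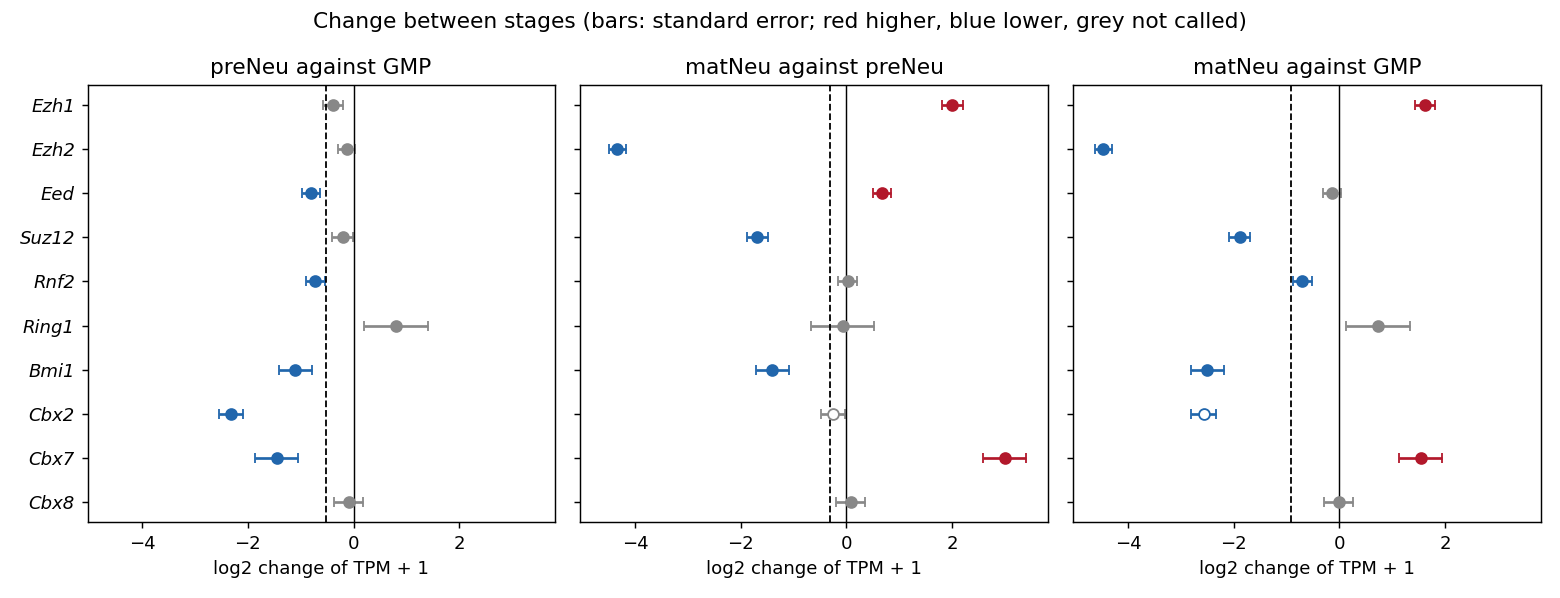
Log2 change of TPM + 1 of each member between stages with its standard error (x axis), by limma, with the median of all 13061 tested genes as a dashed line and 0 as a solid line. Open symbols mark *Cbx2* where matNeu is listed at 0, so that its size depends on the added 1, and *Ezh2* has the most negative value in both comparisons with matNeu.

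The records of several members overlap other genes in the GENCODE M21 annotation, and although the libraries were made with a stranded kit, whether the values deposited used strand is not given in the sources used here. On the other strand *Trmt1l* overlaps *Rnf2* and *Apobec3* overlaps *Cbx7*, and noncoding records overlap *Ezh2*, *Eed* and *Suz12*, so that how reads were shared between them is uncertain.

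PRC2 also needs accessory subunits, which define its forms. Of 9 such genes, 8 were tested, and in matNeu against GMPs 2 were higher and 6 lower, with the same numbers after median ratio scaling, beside 22.8% higher and 54.1% lower among all tested genes (36.1% and 40.3% after that scaling). *Phf1*, a Polycomb-like protein that binds CpG-rich DNA, had 2.18, 1.50 and 2.50 TPM in GMPs, 6.87, 10.2 and 9.08 TPM in preNeu, and 92.8, 82.3 and 122 TPM in matNeu cells. Its log2 change from GMPs to matNeu was 5.02 (standard error 0.24, adjusted p = 1.1e-08 from limma). *Mtf2*, of the same Polycomb-like family, went the other way, from 236, 236 and 269.7 TPM in GMPs to 33.6, 24.1 and 15.6 TPM in matNeu cells (log2 change -3.35, adjusted p = 1.8e-07 from limma). The third of this family, *Phf19*, had 5.43 to 8.70 TPM in GMPs and was listed at 0 in all 3 matNeu libraries. *Rbbp7*, a histone-binding subunit that NuRD and other complexes share, had the most negative change of the list, from 629, 714 and 629 TPM to 10.2, 9.12 and 13.5 TPM (log2 change -5.80, adjusted p = 2.5e-10 from limma). *Lcor*, whose locus also encodes a PRC2 subunit, was higher in matNeu than in GMPs by 0.72 on the log2 scale (adjusted p = 0.013 from limma), a call lost without GMP replicate 3 (0.56, adjusted p = 0.057) and without matNeu replicate 3 (0.60, adjusted p = 0.050).

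Of 7 other genes of canonical PRC1, 0 were called higher and 4 lower in matNeu than in GMPs, and 3 were higher and 2 lower after median ratio scaling. The 4 of 7 are near the 54.1% of all tested genes called lower, and 0 stand beside 22.8% higher. The 3 and 2 after that scaling stand beside 36.1% higher and 40.3% lower among all tested genes. *Cbx6* had 14.5, 16.0 and 15.6 TPM in GMPs, 0.234, 0.331 and 1.64 TPM in preNeu, and 0, 0.0424 and 0.423 TPM in matNeu cells, and was thus low in both neutrophil stages. It reached 1 TPM in the GMP libraries and 1 preNeu library, and thus passed the filter through GMPs, so that its call as lower in matNeu than in GMPs had to follow from that. *Scmh1*, a partner of the polyhomeotic subunits, had 26.7, 15.1 and 29.0 TPM in GMPs and 4.11, 3.42 and 3.93 TPM in matNeu cells (log2 change -2.31, adjusted p = 2.9e-05 from limma).

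Variant PRC1 lacks CBX proteins and holds RYBP or YAF2 instead. Of 12 genes of variant PRC1, 2 were higher and 9 lower in matNeu than in GMPs, beside 22.8% and 54.1% of all tested genes. After median ratio scaling 3 were higher and 5 lower, which are near the 36.1% and 40.3% of all tested genes under that scaling. The 2 that rose before that scaling were *Rybp* and *Yaf2*. *Rybp* had 3.69, 5.13 and 7.56 TPM in GMPs, 18.9, 17.3 and 24.3 TPM in preNeu, and 16.3, 15.3 and 16.9 TPM in matNeu cells (log2 change 1.45 from GMPs to matNeu, adjusted p = 0.00031 from limma). *Yaf2* rose by 1.16 on the log2 scale over the same stages (adjusted p = 0.0051 from limma), although 1 of its matNeu libraries, at 32.6 TPM, lay within the range of GMPs. *L3mbtl2* and *E2f6*, DNA- and chromatin-binding subunits of the PRC1 form with PCGF6, fell most. *L3mbtl2* went from 53.3, 55.3 and 52.2 TPM to 1.64, 1.12 and 2.21 TPM (log2 change -4.38, adjusted p = 1.5e-08 from limma), and *E2f6* from 16.4, 16.1 and 17.3 TPM to 0, 0.41 and 0.304 TPM (log2 change -3.84, adjusted p = 1.5e-07 from limma).

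The next list holds enzymes that remove Polycomb marks, or help to. Of 7 genes, 2 were higher and 3 lower in matNeu than in GMPs, or 4 and 2 after median ratio scaling, beside 22.8% and 54.1% of all tested genes, or 36.1% and 40.3%. *Kdm6b*, a demethylase of lysine 27 of H3, had 1.66 ± 0.466 TPM (SD, n = 3) in GMPs, 9.41 ± 1.29 TPM (SD, n = 3) in preNeu, and 59.8, 49.3 and 68.8 TPM in matNeu cells, and rose at both steps (log2 change 4.50 over both, standard error 0.23, adjusted p = 1.9e-08 from limma). *Kdm6a*, with the same known activity, had 40.5 ± 4.13 TPM (SD, n = 3) in GMPs and 33.7 ± 5.63 TPM (SD, n = 3) in matNeu cells and was not called (log2 change -0.26, adjusted p = 0.20 from limma), but turned to 0.71 and was called higher after median ratio scaling (adjusted p = 0.0017). *Asxl1*, a cofactor of the H2A deubiquitinase BAP1, rose by 2.18 on the log2 scale (adjusted p = 6.8e-07 from limma), and its paralog *Asxl2* changed by -1.82 (adjusted p = 2.2e-06 from limma). *Usp16*, another H2A deubiquitinase, went from 62.9, 56.5 and 44.0 TPM to 17.3, 17.9 and 15.0 TPM (log2 change -1.63, adjusted p = 2.0e-05 from limma).

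**Figure D4:**
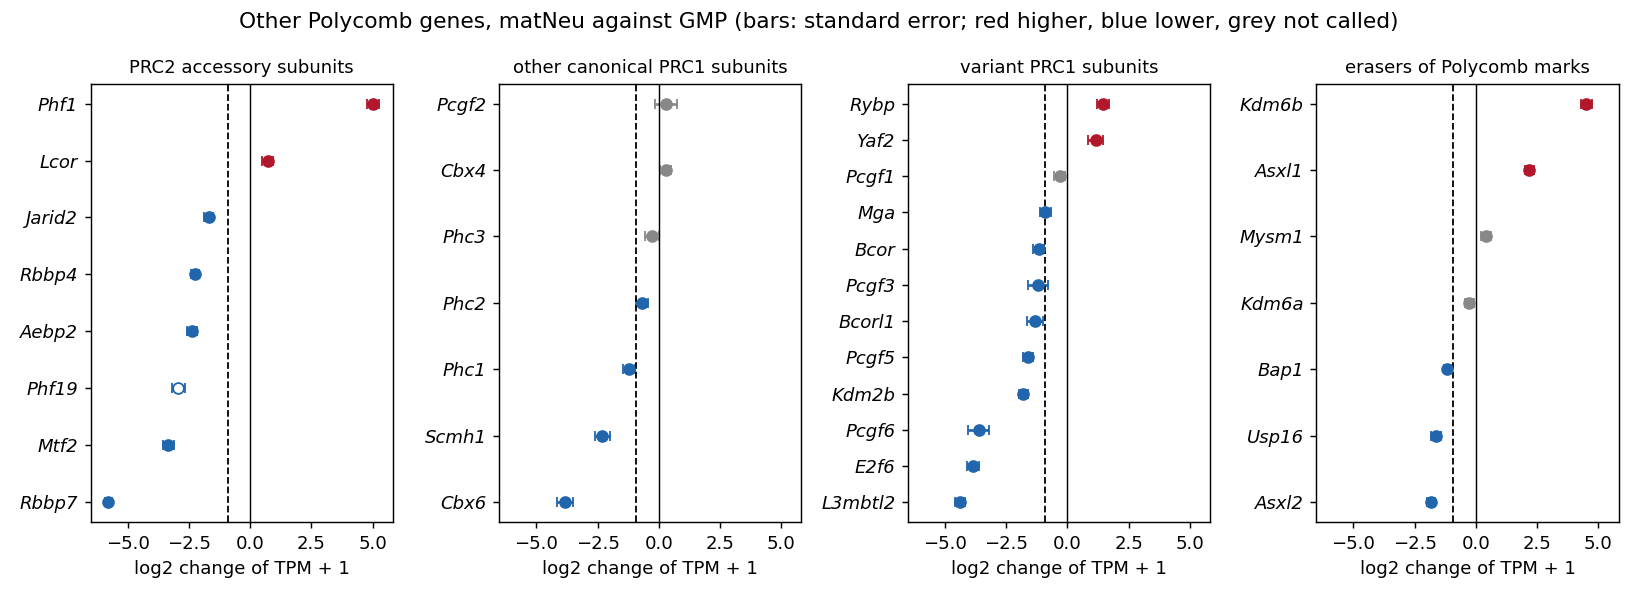
Log2 change of TPM + 1 in matNeu against GMPs (x axis) with its standard error for the tested genes of 4 lists, by limma, with the median of all tested genes as a dashed line. *Phf1* (5.02) and *Kdm6b* (4.50) lie at the upper end and *Rbbp7* (-5.80) at the lower end, and the open symbol marks *Phf19*, which is listed at 0 in matNeu.

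Of 8 genes that textbooks name as Polycomb targets, 3 passed the filter on low values. *Cdkn2a*, the classical target of BMI1 and CBX7, was listed at 0 in each of the 9 libraries. *Hoxa9*, a homeobox gene of progenitors, had 24.9 ± 6.50 TPM (SD, n = 3) in GMPs, 1.24, 0.547 and 0.35 TPM in preNeu, and 0, 0 and 0.562 TPM in matNeu cells. *Hoxa7* had 7.01, 15.8 and 8.78 TPM in GMPs and was listed at 0 in all matNeu libraries. Both passed the filter on low values through GMPs, so that their calls as lower in matNeu than in GMPs had to follow from that. *Pax5*, a B cell factor, was at 0 in GMPs and at 3.06, 1.46 and 1.66 TPM in matNeu cells, and passed the filter through the later stages only, where the B cell markers given above were also present.

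CHD4 peaks of WT GMPs lay in or within 10 kb of the gene record for 3 of the 10 members, against 41.8% of 13048 tested genes with a position. There were 4 such peaks in all, and their fold enrichments, as the authors' peak caller gave them, were below the median of that list. At *Ezh2* an intronic peak from 47562538 to 47562846 had a fold enrichment of 7.14, above 44.4% of the list, and a second from 47593998 to 47594355, with its summit 1257 bases after the start, had 4.96 with a −log10 q of 6.20. At *Eed* the peak from 89980345 to 89980533 had a fold enrichment of 4.99 with its summit 552 bases after the start. At *Rnf2* the peak from 151489945 to 151490122, 10977 bases after the start, had 5.84.

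In *Gfi1*-/- GMPs, 0 of the 10 members had a CHD4 peak within 10 kb, against 13.8% of tested genes, and 0 of the 4 WT peaks overlapped a *Gfi1*-/- peak by at least 1 bp. Over the whole WT list 18.5% of 35790 peaks did, but among the 11823 WT peaks with a fold enrichment in the range of these 4, it was 1.12%. The *Gfi1*-/- list is shorter, with 7316 peaks, each list comes from 1 library of unknown depth, and a missing peak is no measured absence of CHD4. The difference between the genotypes has no replicate check.

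H3K4me2, which lies at promoters and enhancers in use or poised for use, was found within 10 kb of 10 of 10 members at each stage, where 90.5% of tested genes had a peak in GMPs, 92.8% in preNeu and 92.1% in matNeu cells. The lists hold 37643, 49578 and 44094 peaks over 49.8, 97.9 and 80.4 Mb with median fold enrichments of 2.89, 4.55 and 3.78, so that fold enrichments are set here against their own list only. At the members lay 22 peaks in GMPs, 26 in preNeu and 24 in matNeu cells, with 1 to 3 of them per list counted at both *Cbx2* and *Cbx8*, whose records are neighbours. The start of the gene record was covered in 8, 9 and 9 of the 10 members, against 68.3%, 80.1% and 78.4% of tested genes.

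The start without a peak was that of *Cbx7* at all 3 stages and that of *Suz12* in GMPs. The GENCODE record of *Cbx7* reaches far upstream of the RefSeq start at 79932646, and with RefSeq starts for the 9 members that have one and the GENCODE start for *Cbx2*, an alternative chosen after seeing the data, 9, 10 and 10 members were covered. At *Suz12* the GMP list has peaks from 79991797 to 79992741 and from 79993721 to 79995473 on both sides of the start, and the later lists have 1 peak across it.

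The H3K4me2 peak at the start of *Ezh2* was present in matNeu cells, where its TPM was 2.64 to 3.66. It ran from 47591706 to 47596379 in GMPs, from 47591251 to 47596801 in preNeu and from 47592917 to 47596199 in matNeu cells, a width of 4674, 5551 and 3283 bp. Its fold enrichment was above 68.2% of the list in GMPs, 88.6% in preNeu and 95.0% in matNeu cells. At *Ezh1*, whose TPM was highest in matNeu cells, the corresponding figures were 91.5%, 89.5% and 84.4%. At *Bmi1* the start peak was above 95.7%, 98.2% and 99.4% of its list, and 5 peaks were listed within 10 kb at each stage while its TPM fell. Some of these peaks lay upstream or downstream of the *Bmi1* record, and the genes *Commd3* and *Spag6* also lie within 10 kb of it. At *Cbx7* the peak over the RefSeq start was above 90.1%, 82.6% and 96.0% of its list, and at *Cbx2*, listed at 0 TPM in matNeu cells, the start peak was above 99.7%, 68.4% and 74.1%. With 1 library per stage these ranks carry no test.

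The CHD4 peaks of the members lay in regions that later lists mark with H3K4me2. In GMPs 2 of the 4 overlapped an H3K4me2 peak, those near the starts of *Ezh2* and *Eed*, where 37.8% of all WT CHD4 peaks did. In preNeu and in matNeu cells 4 of 4 did, against 59.5% and 52.5% of all WT CHD4 peaks. The intronic sites in *Ezh2* and *Rnf2* were thus under an H3K4me2 peak in both neutrophil lists and under none in the GMP list, which covers less of the genome. At the intronic site of *Ezh2* the H3K4me2 peak ran from 47561460 to 47563234 in preNeu (fold enrichment 4.12, −log10 q 5.58) and from 47562158 to 47563041 in matNeu cells (2.90, −log10 q 2.55). At that of *Rnf2* it ran from 151489694 to 151490595 in preNeu (3.18, −log10 q 2.87) and from 151489901 to 151490081 in matNeu cells (2.55, −log10 q 1.48). At these intronic sites only the *Ezh2* peak of preNeu thus reaches a −log10 q of 5.

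**Figure D5:**
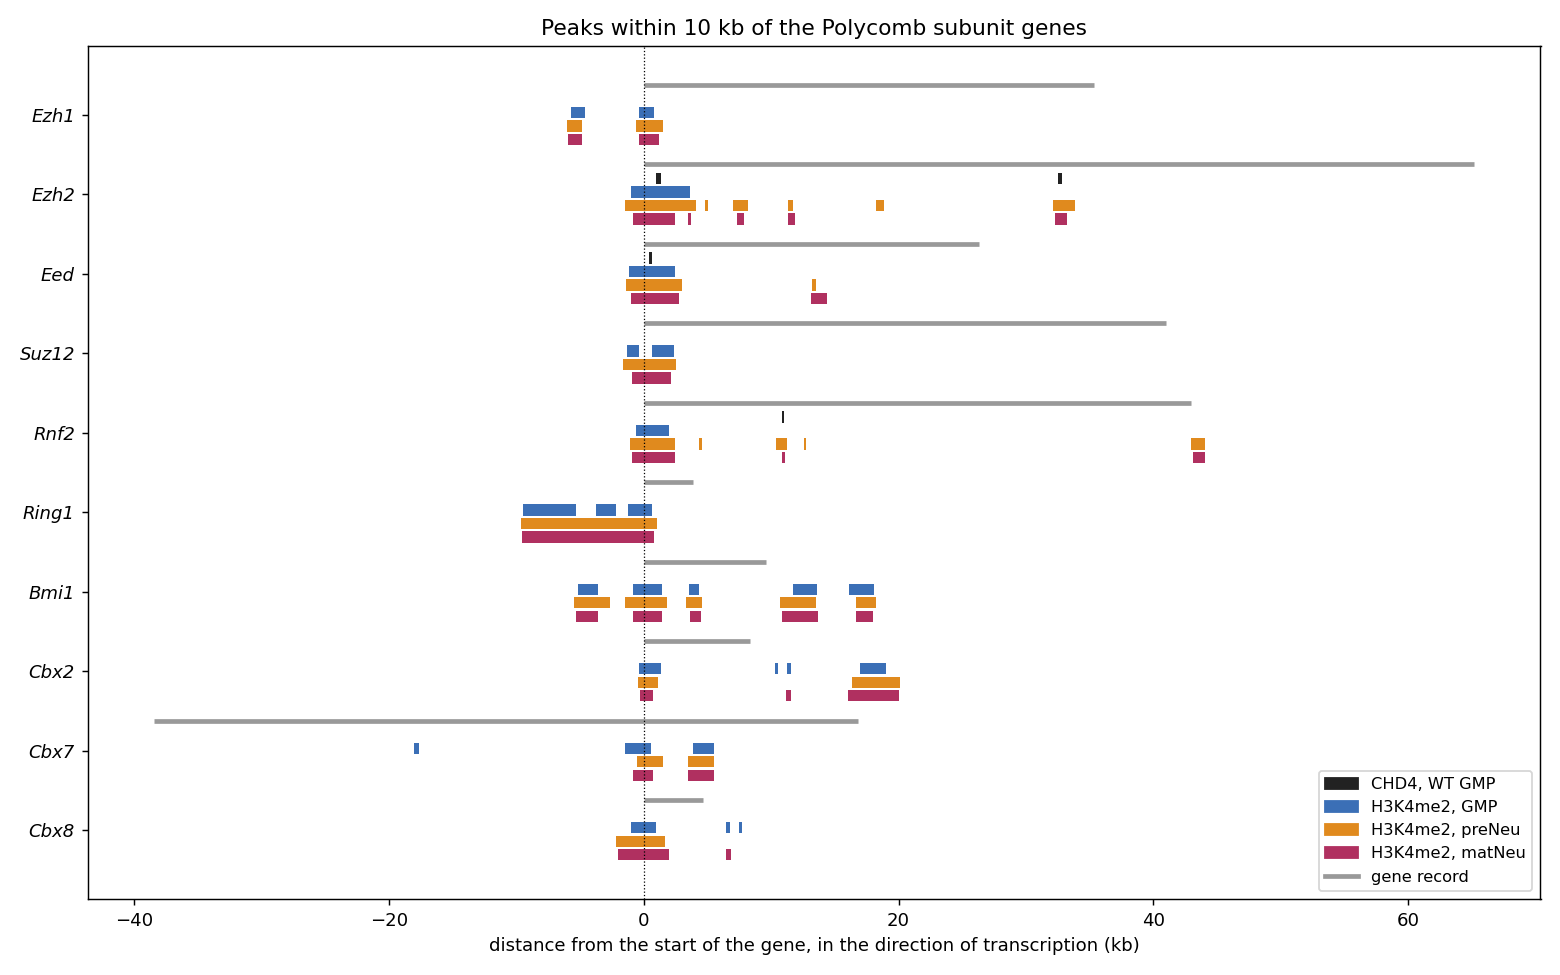
Position of CHD4 peaks (black, WT GMPs) and H3K4me2 peaks (blue GMP, orange preNeu, purple-red matNeu) within 10 kb of each member, as distance in kb from the start of the gene in the direction of transcription, with the GENCODE record in grey (for *Cbx7* the RefSeq start is 0). The 4 CHD4 peaks lie at *Ezh2*, *Eed* and *Rnf2*, and H3K4me2 lies at or beside the start of every member in each list.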

How the data were processed

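Per the labels, RNA-seq, ChIP-seq and ATAC-seq were run on sorted mouse bone marrow cells. The authors deposited TPM per gene and library. Their methods name TopHat, HTSeq and DESeq, and how TPM was made is not given in the sources used here. Each peak carries a fold enrichment (a linear ratio) and a −log10 q-value, both deposited by the authors, and the submitters' processing notes name BWA 0.7.17, MACS2 2.1.0 and kallisto 0.44.0 without roles. The table held 0 per-sample columns beyond those 9. The GFI1 and H3K4me3 lists carry chromosome names the mouse does not have, the ATAC-seq lists were identical, and these were not used.

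The test was limma (version 3.58.1, R 4.3.3) applied to log2(TPM + 1). A gene entered where 3 or more libraries reached 1 TPM, with stage as the only term, a variance trend and Benjamini-Hochberg adjustment at 0.05. Balances were tested by exact permutation. Peaks within 10 kb of GENCODE M21 genes (GRCm38) were counted with Python 3.11.15, and promoter sequences came from RefSeq. The fit was tested on simulated data. Replicate numbers were not used to pair libraries. All members were named, and of each other list up to 2 genes that rose most and 2 that fell most in matNeu against GMPs, with *Phf19*, *Kdm6a* and *Cdkn2a* chosen after their values were seen. The members and lists were chosen with earlier results of these data known. A marker gene of the lists is not reported here.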

Additional observations from a re-analysis of the deposited data

How the results depend on the processing

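Rescaling TPM moved the calls most, since it shifts the median of all genes: by median ratios and by upper quartiles alike, the members called lower in preNeu than in GMPs went from 5 to 2 and those called higher in matNeu than in GMPs from 2 to 5. Under median ratios and upper quartiles the log2 change in matNeu against GMPs turned to 0.91 and 0.83 for *Cbx8*, 0.86 and 0.77 for *Eed* and 0.29 and 0.20 for *Rnf2*, and that in preNeu against GMPs to 0.39 and 0.35 for *Cbx8*, 0.12 and 0.077 for *Ezh1*, 0.40 and 0.35 for *Ezh2* and 0.30 and 0.26 for *Suz12*, while *Ring1* in matNeu against preNeu turned to 0.34 and 0.30. Both scalings also called *Ring1* higher in matNeu than in GMPs and *Rnf2* higher in matNeu than in preNeu. *Cbx2*, which passed the filter on low values through GMPs only, is among the 5 and among the 2 called lower in preNeu. The all-gene split in matNeu against GMPs was 2976 higher and 7065 lower, and 4709 and 5267 after median ratios. In preNeu against GMPs it was 1925 higher and 5781 lower, and 3068 and 3600 after median ratios.

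Leaving out 1 library gave 0 to 1 members higher in preNeu than in GMPs (1 without GMP replicate 3, *Ring1*), 2 to 3 higher in matNeu than in GMPs, and no other change in these counts. Changes that were not called turned sign when 1 library was left out. In matNeu against GMPs the log2 change then ran from -0.23 to 0.20 for *Cbx8*, from -0.26 to 0.013 for *Eed* and from -0.015 to 1.46 for *Ring1*, which was called at 1.46, without GMP replicate 3. In matNeu against preNeu it ran from -0.13 to 0.23 for *Cbx8*, from -0.22 to 0.20 for *Ring1* and from -0.17 to 0.15 for *Rnf2*, and in preNeu against GMPs from -0.25 to 0.12 for *Cbx8*.

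Correlations of deviations between libraries showed no clear pairing by replicate number (-0.04 to 0.12 for the same number, -0.13 to 0.07 for different ones). Such weak correlations do not settle whether the libraries were paired. The replicate block left the counts of members called at 0 and 5, 3 and 3, and 2 and 5. Balances permuted within replicate numbers, where the smallest p is 0.028, gave an adjusted p = 0.074 by the exact permutation test for the EZH balance (preNeu minus GMP 0.26, matNeu minus preNeu -6.34, matNeu minus GMP -6.09), the CBX balance (-0.94, 2.94, 2.00) and the PCGF balance (1.13, -3.92, -2.79), whose differences are those of the main test.

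With a −log10 q of at least 5, H3K4me2 peaks at members fell to 11 in GMPs and 17 in preNeu, and starts covered in GMPs to 5. Peaks of matNeu cells were also lost at this setting, such as that in an intron of *Rnf2* (−log10 q 1.48). In the gene body alone 13 GMP peaks remained. Within 1 kb of the start there were 2 CHD4 peaks, 10 H3K4me2 peaks in GMPs, 9 in preNeu and 9 in matNeu cells.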
